A study of Mus musculus with 9 samples.

Results

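In the intestinal crypt, absorptive and secretory fates are parted by lateral inhibition. Cells that carry the ligands DLL1 and DLL4 activate Notch receptors on their neighbours, the cleaved receptor acts in the nucleus with RBPJ, and its target HES1 represses *Atoh1*. Cells that keep ATOH1 take the secretory path, and SPDEF, GFI1, FOXA3 and CREB3L4 are among the factors found later on that path, above all in goblet cells.

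9 genes of this system were followed in mouse colon, of 27719 genes in the count table: *Atoh1*, *Spdef*, *Gfi1*, *Foxa3*, *Creb3l4*, *Hes1*, *Dll1*, *Dll4* and *Notch1*. Each was taken by its symbol. *Atoh1* was chosen by its own counts in these libraries, low in the DSS mice and high in the others, so its levels are described with no test. The other 8 genes were chosen for their roles. All the mice were C57BL/6J. The control group drank distilled water, and the DSS group was given 2.5% dextran sodium sulfate (DSS), which injures the colon epithelium and causes colitis, in the drinking water for 7 days. The DSS + EA group had the same DSS and, after 5 days of it, electroacupuncture (EA) for 5 days, 30 minutes a day at 2 Hz and 0.2 mA, at the ST36 point of both hind limbs. Per the methods, the control and DSS groups were held in the frame for the same time without EA. Each group had 3 mice and 1 colon library per mouse, made from total RNA as full-length cDNA, amplified by PCR and read by Oxford Nanopore sequencing. Genetic background was not varied, and the mice's age was not given in the sources used here.

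Library totals were 2627695 to 4235576 counts, and levels are given as CPM, counts per 1000000 counts of the library after TMM scaling. A pan-epithelial list (*Epcam*, *Cdh1*, *Krt8* and others) had 12 of 12 genes above the filter on low counts, and its summed level was 5694 to 6881 CPM among controls, 1211 to 4561 CPM after DSS and 4573 to 5979 CPM after DSS + EA. Every library thus held the epithelial markers that the label colon implies. DSS + EA mice 2 and 3 stood apart from all other libraries by pancreatic enzyme genes, which summed to 40685 and 15816 CPM there. The sum was 555 CPM in DSS + EA mouse 1, 121 to 262 CPM among controls and 42.1 to 97.8 CPM after DSS. *Cpa1*, 1 of these genes, had 46 counts in DSS + EA mouse 1 and at most 1 in any control or DSS mouse. In bulk colon RNA, fewer cells of a type and less RNA per cell cannot be told apart.

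*Atoh1* (chromosome 6, 64729125 to 64731245 on the plus strand of GRCm38) has its whole transcript in 1 exon. The 250 bases before its start are shown with those of *Spdef* and *Foxa3*, since these 3 genes were low together in the DSS mice and high together in the other groups. They come from the RefSeq table for GRCm38.p6, read 5′ to 3′ on the gene's own strand, at chr6:64728875-64729124 (plus strand) for *Atoh1*, chr17:27728952-27729201 (minus strand) for *Spdef* and chr7:19023540-19023789 (minus strand) for *Foxa3*. Capitals mark a match, on either strand, to the core of the RBPJ motif (TGGGAA), to the E-box that bHLH activators such as ATOH1 bind (CANNTG) or to the N-box that HES repressors bind (CACNAG).
Atoh1: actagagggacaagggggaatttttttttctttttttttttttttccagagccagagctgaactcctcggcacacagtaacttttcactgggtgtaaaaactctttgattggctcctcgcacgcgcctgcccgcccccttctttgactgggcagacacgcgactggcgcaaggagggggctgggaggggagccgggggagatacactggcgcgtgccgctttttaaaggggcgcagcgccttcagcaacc
Spdef: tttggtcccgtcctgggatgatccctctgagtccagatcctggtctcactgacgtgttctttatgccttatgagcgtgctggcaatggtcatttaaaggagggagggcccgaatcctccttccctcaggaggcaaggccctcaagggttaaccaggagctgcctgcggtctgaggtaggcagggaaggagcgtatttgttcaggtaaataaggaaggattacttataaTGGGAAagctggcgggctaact
Foxa3: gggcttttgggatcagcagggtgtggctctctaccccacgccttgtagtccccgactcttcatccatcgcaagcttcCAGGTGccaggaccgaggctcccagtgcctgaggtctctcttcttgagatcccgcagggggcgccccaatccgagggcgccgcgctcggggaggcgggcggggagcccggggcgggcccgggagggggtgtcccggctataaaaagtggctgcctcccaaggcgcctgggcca

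The *Atoh1* window held none of the 3 motifs, which says only that these letters are not in these 250 bases. *Spdef* had 1 RBPJ core, at -22 to -17 from the start, and *Foxa3* 1 E-box, at -173 to -168. Over 12 start sites of the 8 genes with an entry (*Hes1* had none), the RBPJ core was found at 1, the E-box at 6 and the N-box at 3, and no match overlapped another motif. Among 32817 promoters of that length, 21.6% held the RBPJ core, 66.2% the E-box and 36.7% the N-box.

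*Atoh1*, the bHLH factor that commits crypt cells to the secretory lineage, was nearly absent from the DSS libraries. *Atoh1* was counted 147, 95 and 101 times in the control mice, 0, 2 and 0 times in the DSS mice, and 99, 73 and 105 times in the DSS + EA mice. In CPM these were 37.4, 31.6 and 38.7 for the controls, 0, 0.435 and 0 after DSS, and 30.1, 27.3 and 33.3 after DSS + EA. Every DSS library was therefore under every library of the other groups, and the control and DSS + EA libraries overlapped.

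The 3 control libraries held 343 *Atoh1* counts together and the 3 DSS libraries 2, a level 196 times as high in the control group (95% interval of the ratio from counting alone, 53.8 to 1625). For the DSS + EA group, with 277 counts, the level was 166 times that of the DSS group (interval 45.5 to 1376). With each DSS library set to a floor of 3 counts, these ratios were 42.2 and 35.5. The DSS + EA mean, 30.2 ± 3.02 CPM (SD, n = 3), was 0.843 times the control mean, 35.9 ± 3.78 CPM. PCR copies are not independent molecules, so such intervals and floors cover counting error only. They pool the 3 mice of a group and leave out the spread between mice. *Atoh1* was also chosen by these same counts, so the intervals are a description and carry no test.

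The *Atoh1* counts can be set beside those of marker genes, as a description only, since *Atoh1* was chosen by these counts. DSS mouse 1 had 14178 pan-epithelial counts and 0 *Atoh1* counts, while DSS + EA mouse 2 had 12244 pan-epithelial counts and 73 *Atoh1* counts. Per 1000 pan-epithelial counts, *Atoh1* stood at 6.24, 5.55 and 5.62 in the control mice, at 0, 0.17 and 0 in the DSS mice and at 5.04, 5.96 and 6.29 in the DSS + EA mice. Per 1000 counts of a 10-gene goblet cell list (*Muc2*, *Tff3*, *Clca1* and others), the control mice had 1.17, 0.491 and 1.07 *Atoh1* counts, the DSS mice 0, 0.114 and 0, and the DSS + EA mice 1.31, 1.11 and 1.37. The list itself summed to 31933 to 64352 CPM among controls, 1212 to 10639 CPM after DSS and 23032 to 24489 CPM after DSS + EA. Its genes differed widely between DSS and control, with log2 fold changes of -2.34 for *Tff3*, -6.36 for *Clca1* and -7.55 for *Ang4*, genes chosen after their values were seen (edgeR, adjusted p = 0.00792, 0.000754 and 0.00312). The sum therefore does not stand for each goblet cell gene. On the log2 scale the *Atoh1* ratio with the floor was -5.40, a least fall set by the floor, and its fitted value was -7.36. The fitted values of *Clca1* and *Ang4* are therefore not ranked against the floored one.

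**Figure D1:**
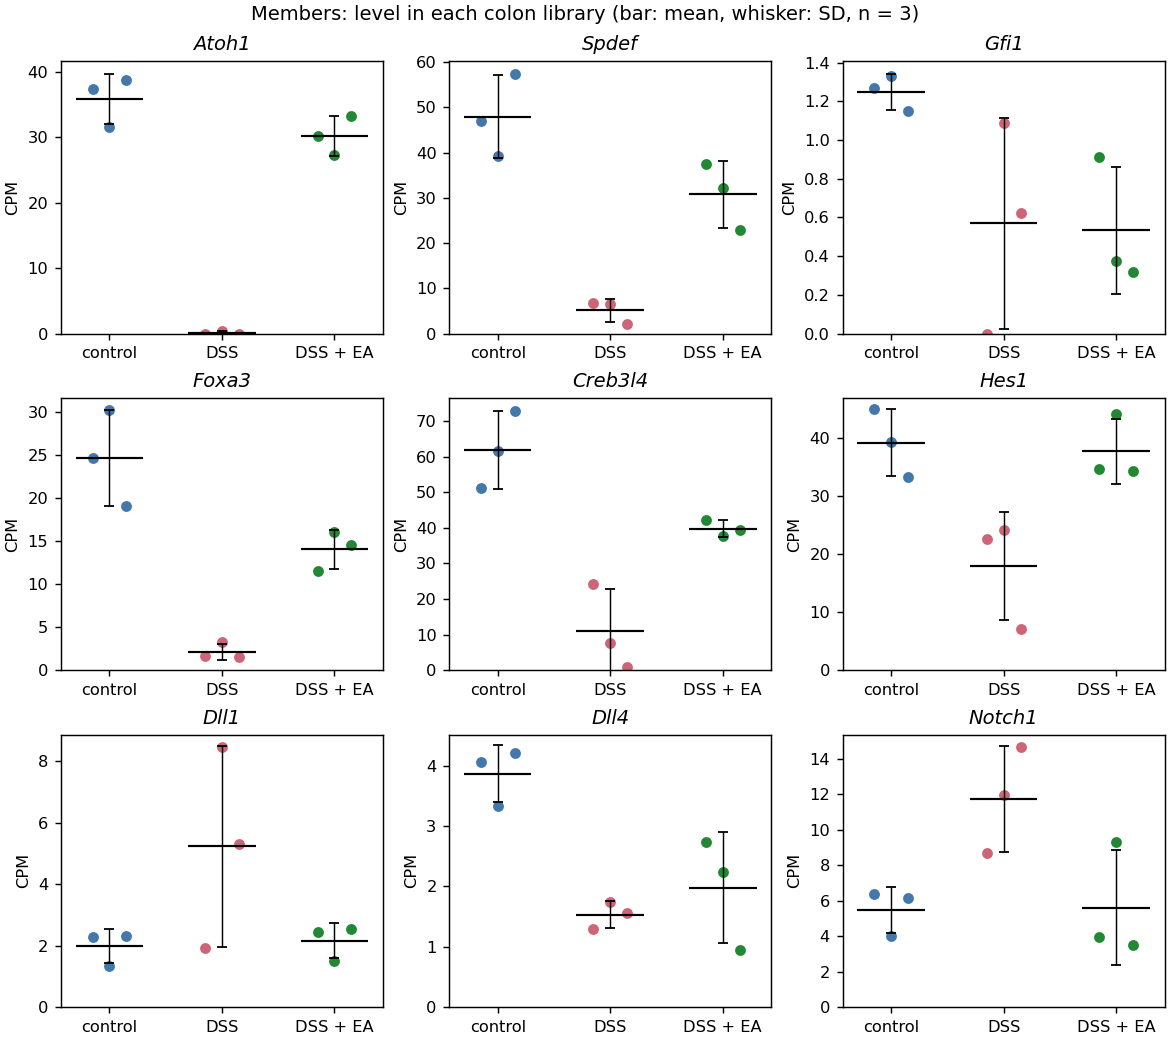
Level (CPM, linear axis from 0) of the 9 genes in each colon library, 1 point per mouse, with the mean and SD of 3 mice per group. *Atoh1* lies at 0 to 0.435 CPM in the DSS mice and at 27.3 CPM or more in the other 6, and *Notch1* is highest in DSS mouse 3.

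Of the 8 genes other than *Atoh1*, 6 passed the filter on low counts, and *Gfi1* and *Dll1* had too few counts to be tested. Between the DSS and control groups, *Spdef*, *Foxa3*, *Creb3l4* and *Hes1* were lower at an adjusted p under 0.05 (edgeR's quasi-likelihood test, adjusted over 12566 genes; *Hes1* not with pan-epithelial scaling), none was higher and *Notch1* did not pass. *Dll4* was also called lower, but it had passed the filter only through the control group, where it is high, and it was not lower with pan-epithelial scaling. Of all genes tested, 40.9% passed in that comparison, 19.5% lower and 21.5% higher. At the DEG thresholds also tried (log2 fold change beyond 2.5 and unadjusted P under 0.01), *Spdef*, *Foxa3* and *Creb3l4* passed, as did 10.2% of all genes. The called genes thus lie among a very large number of changed genes. Between the DSS + EA and DSS groups, which share the DSS mice with the first comparison, *Spdef* and *Foxa3* were higher and the other 4 did not pass, where 35.5% of all genes passed (17.2% higher and 18.3% lower). The same 2 genes passed the DEG thresholds there, as did 6.41% of all genes. Between the DSS + EA and control groups none of the 6 passed in edgeR or DESeq2. Of all genes 3.64% passed in edgeR (3% higher and 0.637% lower, and 2.08% at the DEG thresholds). *Foxa3* and *Dll4* had an unadjusted edgeR p under 0.05 there, as did 17% of all genes.

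*Spdef*, an ETS factor needed for goblet cell maturation, measured 47, 39.2 and 57.5 CPM in the control mice, 6.76, 6.52 and 2.18 CPM in the DSS mice and 37.4, 32.1 and 22.8 CPM in the DSS + EA mice. The 3 groups did not overlap, with DSS lowest and DSS + EA between; groups did not overlap in 52% of all genes tested between DSS and control, in 47.4% between DSS + EA and DSS and in 32.2% between DSS + EA and control. *Spdef* fell by 3.19 ± 0.38 on the log2 scale (± standard error, SE) with DSS (edgeR, adjusted p = 0.000254). It was 2.56 ± 0.38 higher with EA than with DSS alone (edgeR, adjusted p = 0.00129), and its difference between the DSS + EA and control groups, -0.64 ± 0.34, did not pass (edgeR, adjusted p = 0.378).

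*Foxa3*, a forkhead factor expressed in goblet cells, followed the same order. Its level was 24.6, 30.3 and 19.2 CPM in the control mice, 1.61, 3.26 and 1.56 CPM in the DSS mice and 11.6, 16.1 and 14.6 CPM in the DSS + EA mice, again with no overlap between any pair of groups. With DSS it fell by 3.45 ± 0.34 on the log2 scale (edgeR, adjusted p = 0.000103), and it was 2.64 ± 0.34 higher with EA than with DSS alone (edgeR, adjusted p = 0.000752). Against the control group the DSS + EA group differed by -0.81 ± 0.29 (edgeR, unadjusted p = 0.0178, adjusted p = 0.181).

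*Creb3l4*, a membrane-bound bZIP factor of the secretory pathway, spread widely among the DSS mice. It measured 51.1, 61.5 and 72.8 CPM in the control mice, 24.1, 7.6 and 0.936 CPM in the DSS mice and 42.3, 37.7 and 39.3 CPM in the DSS + EA mice. The DSS mice ranked in the order of their pan-epithelial sums (4561, 2552 and 1211 CPM), and no groups overlapped. *Creb3l4* fell by 2.51 ± 0.68 on the log2 scale with DSS (edgeR, adjusted p = 0.0152), a call that was lost without DSS mouse 2 (-2.30, edgeR, adjusted p = 0.0579). With EA against DSS it differed by 1.88 ± 0.68 (edgeR, adjusted p = 0.053). This passed without DSS mouse 1 (3.07, edgeR, adjusted p = 0.00168), without DSS mouse 3 (1.35, edgeR, adjusted p = 0.0345) and in DESeq2 (adjusted p = 0.0215). In the other 7 of 9 fits without 1 mouse the difference did not pass (edgeR, adjusted p up to 0.151).

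*Gfi1*, a zinc finger repressor that acts after ATOH1, was barely counted. Its counts were 5, 4 and 3 among controls, 0, 5 and 2 after DSS and 3, 1 and 1 after DSS + EA, and a difference at these counts was not detectable at this depth.

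Scaling to the pan-epithelial marker counts kept the direction of these calls. The 12 genes of that list differed among themselves between DSS and control, from 0.33 for *Cldn4* to -2.075 for *Cdx2* on the log2 scale. Of them 5 were called lower and none higher, 41.7% beside 40.9% of all genes (edgeR, adjusted p under 0.05). Their sum therefore does not stand for each epithelial gene. With library sizes replaced by the summed pan-epithelial counts, *Spdef*, *Foxa3* and *Creb3l4* differed by -1.97, -2.14 and -1.65 on the log2 scale between DSS and control (edgeR, adjusted p = 0.00382, 0.00696 and 0.0159), while the median of all genes moved to 1.53. *Spdef* and *Foxa3* were then 1.58 and 1.56 higher with EA than with DSS alone (edgeR, adjusted p = 0.0181 and 0.0438), with a median of all genes of -1.30. Leaving out DSS + EA mouse 2 or 3, the libraries with the most pancreatic RNA, left *Spdef* 2.49 or 2.69 and *Foxa3* 2.50 or 2.56 higher (edgeR, adjusted p = 0.00528, 0.00436, 0.00384 and 0.00481). Each of these fits kept the other of these libraries and DSS + EA mouse 1, which held less of this RNA. None of them was therefore free of it. Per goblet cell count the pattern was another one: *Spdef* stood at 1.47, 0.61 and 1.59 per 1000 goblet cell counts in the control mice and at 0.635, 1.71 and 1.8 in the DSS mice, which overlap. *Foxa3* (0.47 to 0.772 in the control and 0.151 to 1.29 in the DSS mice) and *Creb3l4* (0.956 to 2.01 and 0.773 to 2.27) overlapped on that scale too.

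**Figure D2:**
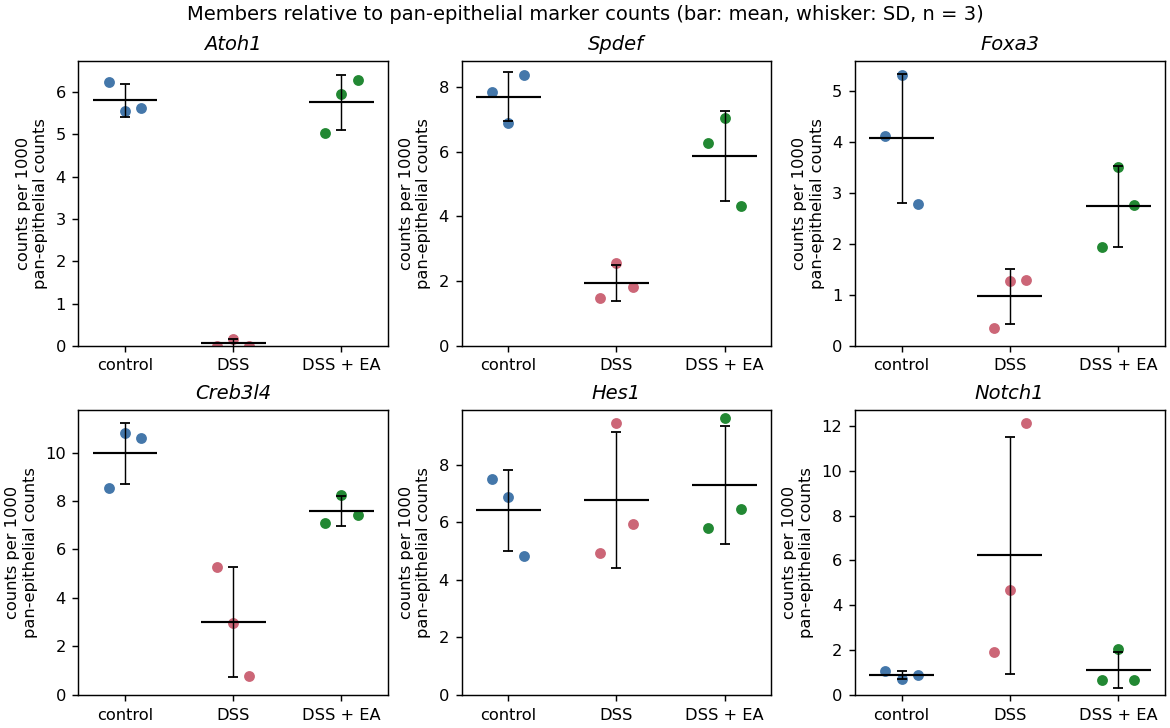
Counts of 6 of the genes per 1000 pan-epithelial marker counts (linear axis from 0), 1 point per mouse, with the mean and SD of 3 mice per group. *Atoh1* and *Spdef* stay apart between the DSS mice and the other groups, *Hes1* overlaps in all 3 groups, and *Notch1* reaches 12.1 in DSS mouse 3.

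*Hes1*, the repressor that Notch induces, was lower in the DSS mice on the CPM scale, though not with pan-epithelial scaling. It measured 45, 39.2 and 33.3 CPM in the control mice, 22.5, 24.1 and 7.18 CPM in the DSS mice and 34.7, 44.1 and 34.3 CPM in the DSS + EA mice. All DSS mice were below all others, and the control and DSS + EA mice overlapped. Between DSS and control *Hes1* fell by 1.12 ± 0.37 on the log2 scale (edgeR, adjusted p = 0.0363), but with pan-epithelial scaling the difference was 0.08 (adjusted p = 0.891).

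The *Hes1* call was also lost without any 1 of the control mice or DSS + EA mouse 3 (edgeR, adjusted p = 0.105, 0.0814 and 0.0566 without control mice 1, 2 and 3, and 0.0543). With EA against DSS the difference was 1.06 ± 0.37, just short of the threshold (edgeR, adjusted p = 0.05003), and 0.10 with pan-epithelial scaling (adjusted p = 0.87). It passed without any 1 of the DSS mice (edgeR, adjusted p = 0.0404, 0.0447 and 0.0427). Per 1000 pan-epithelial counts, the control mice had 7.51, 6.89 and 4.85 *Hes1* counts, the DSS mice 4.94, 9.45 and 5.93, and the DSS + EA mice 5.8, 9.64 and 6.47. The 3 groups overlapped on that scale.

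*Dll4*, a ligand of Notch carried by secretory cells and by endothelium, was counted 16, 10 and 11 times in the control mice, 4, 8 and 5 times in the DSS mice and 9, 6 and 3 times in the DSS + EA mice. It passed the filter through the control libraries alone, the only group with 10 or more counts in each mouse, so a test against that group is not independent of the filter. Its level was 3.87 ± 0.477 CPM among controls, 1.53 ± 0.227 CPM after DSS and 1.98 ± 0.923 CPM after DSS + EA (SD, n = 3). Between DSS and control *Dll4* differed by -1.30 ± 0.41 on the log2 scale (edgeR, adjusted p = 0.0281), by -1.34 with no filter (adjusted p = 0.0491) and by 0.06 with pan-epithelial scaling (adjusted p = 0.942).

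The filtered call was lost in DESeq2 (adjusted p = 0.0679) and without control mouse 1 or 3 or any 1 of the DSS mice (edgeR, adjusted p = 0.0791, 0.0741, 0.0565, 0.053 and 0.0628). With EA against DSS *Dll4* differed by 0.35 ± 0.45 (edgeR, adjusted p = 0.593), or by -0.80 with pan-epithelial scaling (adjusted p = 0.335). Endothelial markers ran the other way: a list of 10 (*Pecam1*, *Cdh5*, *Kdr* and others) summed to 72.4 to 84.8 CPM among controls, 180 to 241 CPM after DSS and 95 to 102 CPM after DSS + EA. Per 1000 endothelial counts, a ratio taken after these values were seen, *Dll4* stood at 49.2, 39.2 and 58.2 in the control mice, at 7.16, 7.33 and 6.49 in the DSS mice and at 28.8, 22.1 and 9.62 in the DSS + EA mice, so that no groups overlapped. On that scale *Atoh1*, *Spdef*, *Foxa3*, *Creb3l4* and *Hes1* had no overlap between groups either, while *Gfi1*, *Dll1* and *Notch1* did. The separation is therefore not particular to *Dll4*, and the share over all genes was not counted on that scale.

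*Dll1*, the other ligand, was counted 9, 4 and 6 times among controls, 6, 39 and 17 times after DSS and 8, 4 and 8 times after DSS + EA. DSS mice 2 and 3 were above all the others, DSS mouse 1 lay within their range, and *Dll1* did not pass the filter. Fitted with no filter, it differed by 1.37 ± 0.52 on the log2 scale between DSS and control (edgeR, adjusted p = 0.0643) and by -1.20 ± 0.52 between DSS + EA and DSS (edgeR, adjusted p = 0.111).

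*Notch1*, the receptor, was counted 25, 12 and 16 times in the control mice, 27, 55 and 47 times in the DSS mice and 13, 25 and 11 times in the DSS + EA mice. The DSS libraries, at 8.69, 12 and 14.7 CPM, were above the control libraries, at 6.35, 3.99 and 6.13 CPM, and DSS + EA mouse 2, at 9.34 CPM, overlapped the DSS mice. The log2 differences were 1.09 ± 0.40 for DSS against control (edgeR, adjusted p = 0.0514) and -1.09 ± 0.40 for DSS + EA against DSS (edgeR, adjusted p = 0.058), neither past the threshold.

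Both *Notch1* differences passed in DESeq2 (adjusted p = 0.0404 and 0.0445), without DSS mouse 1 (1.27 and -1.31, edgeR, adjusted p = 0.0302 and 0.0288) and without DSS + EA mouse 2 (1.10 and -1.69, edgeR, adjusted p = 0.025 and 0.0147). In the other 7 of 9 fits without 1 mouse neither passed (edgeR, adjusted p up to 0.158 and 0.173). With pan-epithelial scaling they were 2.75 and -2.45 (edgeR, adjusted p = 0.00239 and 0.00701). NOTCH1 is also carried by endothelial and immune cells, and a 10-gene leukocyte list (*Ptprc*, *Cd52*, *Laptm5* and others) summed to 255 to 307 CPM among controls, 898 to 5689 CPM after DSS and 570 to 721 CPM after DSS + EA. Per 1000 endothelial counts, *Notch1* stood at 76.9, 47.1 and 84.7 in the control mice and at 48.3, 50.4 and 61 in the DSS mice, which overlap. The part of these cells in the *Notch1* values was not tested.

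**Figure D3:**
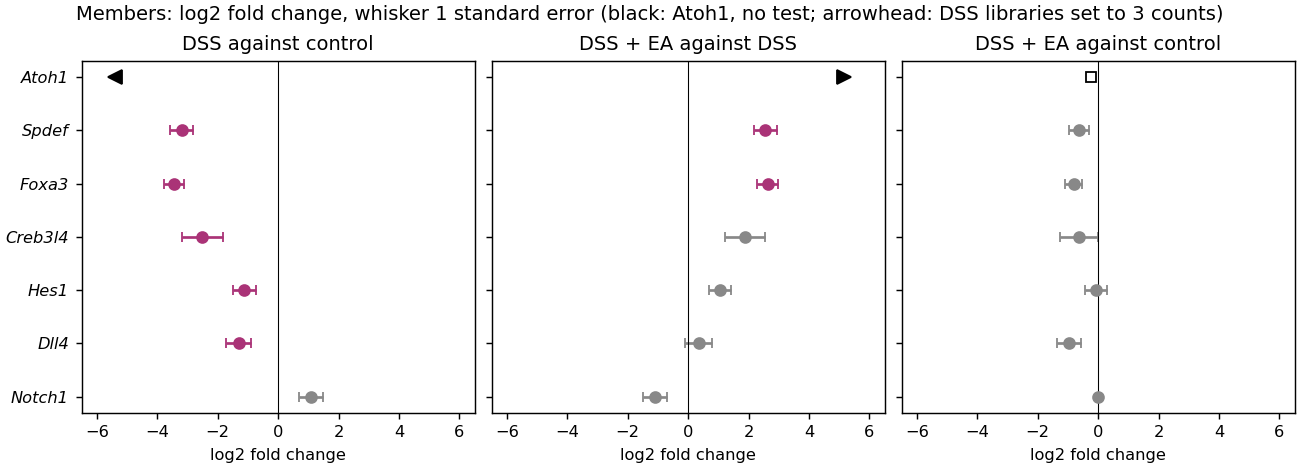
Log2 fold change of the 7 genes that passed the filter in the 3 comparisons, with whiskers of 1 SE from edgeR, purple where the adjusted p is under 0.05 and grey where it is not. *Atoh1*, in black, has no test: arrowheads give its ratio with each DSS library set to 3 counts, and the open square its fitted value. *Spdef* and *Foxa3* are purple in the first 2 panels and no gene is in the third; with pan-epithelial scaling, not drawn here, *Hes1* and *Dll4* turn direction between DSS and control and *Dll4* between DSS + EA and DSS.

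Across the 9 libraries, which share the 3 groups, log2 CPM of *Atoh1* correlated with *Foxa3* at r = 0.966, *Spdef* at 0.95, *Creb3l4* at 0.815, *Hes1* at 0.803, *Dll4* at 0.574 and *Notch1* at -0.773. These values describe the libraries and carry no test. Among all genes tested with an Ensembl identifier, *Trmt1l* (r = 0.997), *Golgb1* (0.995), *Dguok* (0.994), *Rwdd2b* (0.992) and *Map2k1* (0.989) had the patterns most like that of *Atoh1*. *Trmt1l* measured 14.9 ± 1.43, 0.857 ± 0.387 and 15.1 ± 1.53 CPM for control, DSS and DSS + EA mice in turn (SD, n = 3), and *Golgb1* 69.8 ± 4.05, 23.4 ± 3.73 and 66.4 ± 0.25 CPM. Closest to *Hes1* were *Clmn* (r = 0.973), *Muc3* (0.972), *Rhod* (0.969), *Capn5* (0.969) and *Inppl1* (0.968).

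The rest of the pathway was read from 5 lists of 79 genes, of which 53 passed the filter. Between DSS and control 10 were higher and 10 lower at an adjusted p under 0.05 in edgeR, 37.7% of those tested, where 40.9% of all genes passed. Between DSS + EA and DSS 9 were higher and 10 lower, 35.8%, where 35.5% of all genes passed. Between DSS + EA and control none passed in edgeR or DESeq2. An unadjusted edgeR p under 0.05 was found for 5 of the 53 and for 17% of all genes. As a whole the lists thus changed about as often as other genes. Of the 53, 10 passed the filter only with the libraries of the group where they were highest. Those with values given below are *Mfng*, *Neurl1b*, *Foxa2*, *Isl1* and *Ascl2*. Their calls, with DSS and with EA, are not independent of the filter. In a fit with no filter the calls given for them stayed past the threshold. With pan-epithelial scaling 30 of the 53 were higher and 1 lower with DSS, where 7096 of all 12566 genes were higher and 403 lower. With EA against DSS 1 was higher and 26 lower, where 376 of all genes were higher and 5778 lower.

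None of the 8 other receptors and ligands passed the filter. *Notch2* was counted 6, 3 and 0 times among controls, 7, 36 and 10 times after DSS and 2, 1 and 2 times after DSS + EA, so that the DSS mice were above all others. Without the filter *Notch2* was 2.22 ± 0.69 higher with DSS on the log2 scale (edgeR, adjusted p = 0.0275) and differed by -2.88 ± 0.76 with EA against DSS (edgeR, adjusted p = 0.0149). *Notch3* had 3 to 6, 5 to 16 and 0 to 6 counts in the control, DSS and DSS + EA mice, *Jag1* 4 to 8, 7 to 19 and 2 to 8, and *Jag2* 1 to 5, 3 to 25 and 1 to 6. All 3 overlapped between groups.

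Of 19 tested genes of receptor processing and modification, 2 were higher and 2 lower with DSS. That is 21.1% of them, beside 40.9% of all genes. With EA against DSS 2 were higher and 2 lower, again 21.1%, beside 35.5%. *Furin*, a protease that cuts the receptor precursor, rose by 1.49 ± 0.35 on the log2 scale, and *Mfng*, a glycosyltransferase of the fringe family, rose by 1.52 ± 0.46 (edgeR, adjusted p = 0.00786 and 0.0243). *Pofut1*, which adds fucose to the receptor, differed by -0.91 ± 0.22, and *Neurl1b*, an E3 ligase for ligands, by -2.42 ± 0.52 (edgeR, adjusted p = 0.00896 and 0.00485). With pan-epithelial scaling neither call held, and *Pofut1* turned to the other direction, at +0.63 (adjusted p = 0.342), while *Neurl1b* was at -1.35 (adjusted p = 0.0718, edgeR). With EA against DSS *Furin* and *Psen2*, a γ-secretase subunit, differed by -1.89 ± 0.36 and -1.09 ± 0.32, and *Neurl1b* and *Rfng* were higher by 1.71 ± 0.54 and 0.94 ± 0.32 (-0.27 for *Rfng* and 0.86 for *Neurl1b* with pan-epithelial scaling, adjusted p = 0.712 and 0.265; edgeR, adjusted p = 0.00402, 0.0242, 0.0334 and 0.0441). *Furin* and *Pofut1* kept their calls in all 9 fits without 1 mouse, while *Mfng* lost its call in 4 (control mice 1 and 3, DSS mice 2 and 3), *Psen2* in 5 (DSS mice 2 and 3 and each DSS + EA mouse), *Neurl1b* with EA in 6 (control mice 1 and 2, DSS mice 2 and 3, DSS + EA mice 2 and 3) and *Rfng* in all but the fit without DSS + EA mouse 2, with adjusted p up to 0.0831, 0.0724, 0.128 and 0.158 in edgeR. *Adam10* and *Adam17*, the proteases that cut the activated receptor, differed by -0.37 and 0.34 with DSS and did not pass (edgeR, adjusted p = 0.288 and 0.421).

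Among 21 tested genes of the nuclear complex and its regulators, 7 were higher and 1 lower with DSS. That is 38.1% of them, beside 40.9% of all genes. With EA against DSS 2 were higher and 7 lower, 42.9% beside 35.5%. *Maml1* and *Numbl*, called higher with DSS and lower with EA, passed the filter only through the DSS group, where they are high. Their calls are not independent of the filter. *Rbpj*, the DNA-binding partner of the cleaved receptor, measured 15.8 ± 1.33 CPM among controls, 38 ± 12.2 CPM after DSS and 14.6 ± 2.66 CPM after DSS + EA (SD, n = 3). It was 1.26 ± 0.26 higher with DSS and differed by -1.38 ± 0.26 with EA against DSS (edgeR, adjusted p = 0.00432 and 0.00399). The ubiquitin ligase gene *Dtx4* rose from 4.21 ± 0.673 to 16.6 ± 0.97 CPM with DSS and stood at 6.87 ± 1.21 CPM with EA (edgeR, adjusted p = 0.000375 and 0.00395 for the steps). *Crebbp*, a histone acetyltransferase, was 1.43 ± 0.24 higher with DSS, and the deacetylase gene *Hdac1* fell by 0.49 ± 0.17, but stood at +1.06 with pan-epithelial scaling (edgeR, adjusted p = 0.00145 and 0.0396). With EA against DSS *Dtx3l* and *Hdac1* were higher by 1.64 ± 0.34 and 0.62 ± 0.17 (0.17 and -0.68 with pan-epithelial scaling, adjusted p = 0.814 and 0.248, so that neither call held; edgeR, adjusted p = 0.0061 and 0.0178). *Rbpj*, *Dtx4*, *Crebbp* and *Dtx3l* kept these calls in all 9 fits without 1 mouse, and *Hdac1* kept its call with DSS only without DSS mouse 1 (adjusted p up to 0.155, edgeR) and lost that with EA without DSS + EA mouse 2 or 3 (up to 0.0826). *Rbpj* is used by most cell types, and its rise stood beside those of the endothelial and leukocyte lists, whose part in it was not tested.

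Of the 7 genes on the target list, which leaves out *Hes1*, *Nrarp* and *Hes6* could be tested, and *Hes6* is not a classical Notch target. Both were lower with DSS, as were 19.5% of all genes, though neither was with pan-epithelial scaling (+0.09 for *Nrarp* and +0.48 for *Hes6*). *Nrarp*, a feedback inhibitor of Notch, measured 9.47 ± 0.384 CPM among controls, 3.89 ± 1.61 CPM after DSS and 9.03 ± 2.34 CPM after DSS + EA (SD, n = 3). It differed by -1.24 ± 0.34 with DSS and was 1.17 ± 0.35 higher with EA than with DSS alone (0.07 with pan-epithelial scaling, adjusted p = 0.923; edgeR, adjusted p = 0.0168 and 0.0258). *Hes6*, a relative of HES1, differed by -0.94 ± 0.22 with DSS, against +0.48 with pan-epithelial scaling (adjusted p = 0.421, edgeR), and was 0.72 ± 0.22 higher with EA (-0.48 with that scaling; edgeR, adjusted p = 0.00809 and 0.0309). *Nrarp* lost its call with DSS without control mouse 1 (edgeR, adjusted p = 0.0513) and that with EA without DSS mouse 1 or 3 or DSS + EA mouse 1 or 2 (up to 0.0875), and *Hes6* lost that with EA in 7 of 9 fits, all but those without control mouse 3 or DSS mouse 2 (up to 0.106). *Hey1* had at most 6 counts in any mouse and *Hes5* at most 1.

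Among 11 tested other secretory factors, 5 were lower and 1 higher with DSS, and 3 were higher and 1 lower with EA against DSS. These are 54.5% and 36.4% of them, beside 40.9% and 35.5% of all genes. *Foxa2*, a forkhead relative of *Foxa3*, was counted 23, 5 and 10 times among controls, 0, 3 and 0 times after DSS and 13, 6 and 7 times after DSS + EA. Its level was 14.5 times as high in the control as in the DSS group (95% interval from counting alone, 4.59 to 73.3). This ratio has no floor, and no DSS library was above 3 counts, the floor used for *Atoh1*. That floor stands at 0.652 to 0.965 CPM in the DSS libraries, beside a control mean of 3.78 CPM, so a floored ratio would be smaller. *Foxa2* passed in both comparisons (edgeR, adjusted p = 0.00643 and 0.0171), but not with EA without DSS + EA mouse 1 (adjusted p = 0.0588). *Ascl2*, a stem cell bHLH factor, differed by -2.62 ± 0.44, and *Sox9*, a crypt progenitor factor, by -1.07 ± 0.32 (edgeR, adjusted p = 0.00145 and 0.0232), against -1.30 and +0.26 with pan-epithelial scaling, where neither passed (adjusted p = 0.0972 and 0.684). *Sox9* lost its call without control mouse 1 or 2 or DSS mouse 3 (edgeR, adjusted p up to 0.0715). *Elf3*, an epithelial ETS factor, was 1.93 ± 0.41 higher with EA than with DSS alone (edgeR, adjusted p = 0.00633) and 1.05 higher with pan-epithelial scaling, which did not pass (adjusted p = 0.0578). It stood at 645 to 998, 137 to 569 and 1054 to 1408 counts in the control, DSS and DSS + EA mice.

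*Isl1*, a factor of enteroendocrine cells and other cell types, was counted 7, 9 and 3 times among controls, 10, 38 and 27 times after DSS and 4, 2 and 6 times after DSS + EA, so that only the DSS group, where it is high, took it past the filter. It differed by 1.73 ± 0.49 on the log2 scale with DSS and by -2.32 ± 0.53 with EA against DSS (edgeR, adjusted p = 0.0185 and 0.00851), the first of these lost without control mouse 1 or 3 or DSS mouse 2 or 3 (up to 0.0676). With no filter the values were 1.69 and -2.24 (edgeR, adjusted p = 0.0219 and 0.00871). *Klf4*, *Xbp1* and *Foxa1*, all factors of goblet cells among other cells, differed by -0.10, -1.17 and -1.06 with DSS and did not pass (edgeR, adjusted p = 0.906, 0.143 and 0.056). The *Klf4* counts of the DSS mice ran from 31 to 416, and those of *Xbp1* in the DSS + EA mice from 142 to 871. *Neurog3*, the factor that starts the enteroendocrine path, had at most 2 counts in any mouse.

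**Figure D4:**
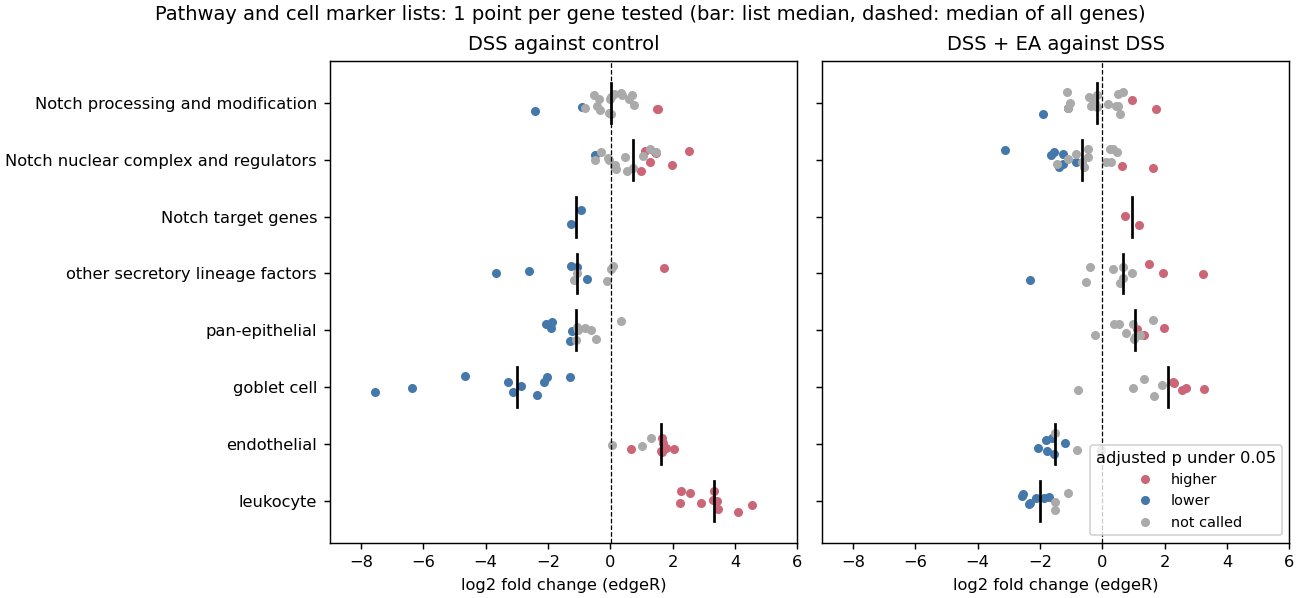
Log2 fold change (edgeR) of each tested gene of 4 pathway lists and 4 cell marker lists, with DSS against control on the left and DSS + EA against DSS on the right, red or blue where the adjusted p is under 0.05; bars mark list medians and the dashed line the median of all genes. The goblet cell and epithelial lists lie to the left with DSS and the endothelial and leukocyte lists to the right. The Notch processing genes centre on 0.02 with DSS. With pan-epithelial scaling, not drawn here, 30 of the pathway genes that passed with DSS were higher and 1 lower. Of all 12566 genes, 7096 were then higher and 403 lower.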

How the data were processed

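Colon RNA was measured in 9 mice, 3 to a group (control, DSS, DSS + EA), by Oxford Nanopore cDNA-PCR sequencing. The authors deposited whole-number counts per gene, not normalized. The submitters' processing notes name mm10; the aligner, the counting tool and the use of strand are not given in the sources used here, so reads of overlapping genes on opposite strands, as at *Gfi1*, *Dll1*, *Dll4* and *Notch1*, cannot be told apart. Of 27733 lines, 14 without counts were skipped, which left 27719 genes. No 2 libraries held the same values. Depth was 2627695 to 4235576 counts per library.

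The test was edgeR's (version 4.0.16, in R 4.3.3, with TMM, filterByExpr by group, prior count 0.125, and the quasi-likelihood F test), in a single fit of all libraries with Benjamini-Hochberg adjustment over 12566 genes. The SE is the log2 fold change divided by the square root of F. The members, lists and tests were chosen with earlier results of these data known. Named genes were the 9 members, from each list up to 3 genes per direction with the smallest P among those called for DSS against control and up to 2 for DSS + EA against DSS, some fixed pathway genes, and the 5 genes most like *Atoh1* and *Hes1*. Counting intervals are exact binomial intervals on summed counts. Alternatives were DESeq2 1.42.0, other scalings and filters, a prior count of 2, the DEG thresholds from the legends of the study, a replicate block and leaving out each mouse. The fits were tested on simulated counts. Positions came from GENCODE M21 (GRCm38) and promoters from RefSeq (GRCm38.p6), by Python 3.11.15 with pandas 2.3.3; matplotlib 3.10.9 drew the figures. The mice are separate animals; 3 against 3 cannot give an exact two-sided permutation p under 0.1, so no such test was made.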

Additional observations from a re-analysis of the deposited data

How the results depend on the processing

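Of the 6 tested members, *Spdef* and *Foxa3* kept their direction and call in the first 2 comparisons (DSS against control, DSS + EA against DSS) under every alternative fit, with log2 fold changes of -3.41 to -1.97 and 1.58 to 2.78 for *Spdef* and of -3.93 to -2.14 and 1.56 to 3.12 for *Foxa3*. No fit was scaled to goblet cell counts, and per goblet cell count the control and DSS mice overlapped for both genes. Pan-epithelial scaling reversed *Hes1* between DSS and control (0.0817) and *Dll4* in that comparison (0.0593) and between DSS + EA and DSS (-0.80), and it moved the *Atoh1* ratio, with DSS libraries set to 3 counts, from -5.40 to -3.81 and from 5.15 to 3.80 on the log2 scale. It moved the median of all genes by construction.

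For DSS against control, 5 members passed in the fit reported (*Dll4* included), 3 with the DEG thresholds (log2 fold change beyond 2.5 and P under 0.01) and 3 to 6 with 1 mouse left out, 3 being without control mouse 1, control mouse 3 or DSS mouse 2. For DSS + EA against DSS, 2 passed, against 5 in DESeq2, 4 with no filter and 2 to 5 with 1 mouse left out (5 without DSS mouse 1 and 4 without DSS mouse 3). For DSS + EA against control, 0 passed, against 1 (*Creb3l4*, -0.63, edgeR, adjusted p = 0.0474) with only the 2 groups in the fit. Of the pathway genes, 20 passed for DSS against control, against 31 with pan-epithelial scaling, 12 with a mean of at least 20 counts, 3 with the DEG thresholds and 12 to 24 with 1 mouse left out (13 without control mouse 1 and 12 without control mouse 3). For DSS + EA against DSS, 19 passed, against 10 with a mean of at least 20 counts, 2 with the DEG thresholds and 11 to 20 with 1 mouse left out (12 without DSS + EA mouse 1 and 11 without DSS + EA mouse 3). For DSS + EA against control, 0 passed, against 2 with only the 2 groups in the fit and 0 to 1 with 1 mouse left out (1 without DSS mouse 2). Over all genes the number called changed by setting too. For DSS against control it was 5144 of 12566 in the fit reported, 7499 with pan-epithelial scaling and 3872 without control mouse 1. It was 3974 of 9508 there with a mean of at least 20 counts. For DSS + EA against DSS it was 4457, and it was 5696 without DSS mouse 1 and 2916 without DSS + EA mouse 3. In that comparison DESeq2 called 4595 of 12549 genes, the fit with no filter 5049 of 22099 and the higher filter 3499 of 9508. For DSS + EA against control it was 457, and 1179 with only the 2 groups in the fit. Fewer genes are tested with the higher filter. The cause of the other differences was not tested.

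The labels do not say whether the replicate numbers pair the mice. Of 9 same-number correlations 1 was above 0.1 (range -0.16 to 0.105), and the best match was the same number in 2 of 18 cases. With 3 mice per group these values cannot decide whether a pairing exists. With the replicate block 4 members passed for DSS against control, 3 for DSS + EA against DSS and 0 for DSS + EA against control, and 19, 17 and 0 pathway genes. Of all 12566 genes, 4543, 3829 and 364 passed in turn. *Dll4* between DSS and control no longer passed (-1.30, edgeR, adjusted p = 0.0601), and *Hes1* between DSS + EA and DSS did (1.17, adjusted p = 0.0337). Depth limits *Gfi1*, *Dll1* and the other receptors and ligands, which have few counts.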
